A study of Homo sapiens with 3 samples.

Results

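Metallothioneins are small, cysteine-rich proteins that hold zinc and copper in clusters of thiolate bonds and also bind toxic metals such as cadmium. The 8 human metallothionein genes described here are MT1E, MT2A, MT1X, MT1F, MT1G, MT1M, MT1A and MT1H, which lie in 1 cluster on chromosome 16, and they are 8 of the 58037 genes in the count table. The rows were found by Ensembl identifier. The genes were selected on measured values, since MT1E was picked for its large difference between the OLFM4-knockout and OLFM4-wild libraries and its relatives were taken with it. The differences from the OLFM4-wild library are therefore a description.

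Metallothionein genes respond to metal through MTF1, a zinc finger protein that senses free zinc and binds short metal response elements before their start sites. Glucocorticoids and oxidative stress are also known inducers. The genes differ in where they are used, MT1 and MT2 genes being active in many tissues, MT3 mainly in brain and MT4 in stratified epithelium. The prostate epithelium is known for the zinc it holds.

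RNA was sequenced from RWPE1, an immortalised line of normal human prostate epithelial cells, in 3 libraries, 1 for each of the labels OLFM4-wild, OLFM4-knockout and OLFM4-active. The study's methods describe OLFM4-knockout cells made with double nickase CRISPR/Cas9 plasmids against OLFM4, a secreted olfactomedin glycoprotein, which carry green fluorescent protein, were selected in puromycin and were sorted on fluorescence before sequencing. Activation plasmids for the same gene are described in the making of OLFM4-wild reporter cells, and which plasmids the OLFM4-wild and OLFM4-active libraries carry is not given in the sources used here. With 1 line behind each label, differences that come from making and selecting a line cannot be told apart from those that come from OLFM4.

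OLFM4 itself had 214, 131 and 16 counts in OLFM4-wild, in OLFM4-knockout and in the library labelled OLFM4-active. Levels are given as CPM, the gene's count relative to the size of its library after TMM scaling, and for OLFM4 they were 11.8 with an interval of 10.3 to 13.5, 2.55 with an interval of 2.13 to 3.03, and 0.670 with an interval of 0.383 to 1.09. OLFM4 was lowest in the library labelled OLFM4-active, against that label, and the library is called by its label throughout. The totals were 16309906, 58837147 and 23224216 counts. With 1 library per label there is no replicate check and no test between conditions, and every interval is a 95% interval (Clopper-Pearson) that covers counting error only. A bulk library cannot tell more RNA per cell from more cells that hold it. All 7 basal epithelial markers, KRT5, KRT14, KRT15, TP63, ITGA6, CDH1 and EPCAM, had counts in each library. Their summed level was 18254, 40177 and 21796 CPM in the same order. KRT5 made up most of it, at 12232, 27077 and 13685.5 CPM, followed by KRT14, at 4006, 9666 and 5542 CPM. ITGA6 was at 1168, 2211 and 1613 CPM, and EPCAM at 32.9, 51.2 and 57.1 CPM. TP63 differed less, at 414, 472 and 450 CPM, as did CDH1, at 275, 340 and 352 CPM. KRT15 was at 127, 359 and 97.2 CPM, lowest in the library labelled OLFM4-active. The 6 fibroblast markers summed to 22.9 to 34.1 CPM, with COL3A1 and LUM at 0 counts. Most of that sum was COL1A1, with 549, 1324 and 521 counts, or 30.2, 25.8 and 21.8 CPM. COL1A2 had 50, 268 and 24 counts, DCN 18, 33 and 0, and PDGFRB 3, 8 and 2. The 5 immune markers summed to between 20.05 and 31.5 CPM, nearly all of it CD68, with CD3E and LYZ at 0. CD14 had 2, 25 and 6 counts and PTPRC 0, 2 and 0. The 3 endothelial markers summed to at most 0.605 CPM. Of the hepatocyte markers, ALB had 0 counts in every library and APOA1 had 0, 3 and 0. The part of these differences in the metallothionein values was not tested.

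The promoters are shown because MTF1 is known to act through them. RefSeq promoter sequences (GRCh38.p14) were at hand for 3 of the 8 genes, MT2A, MT1X and MT1H, and are given with that of SLC30A1, which encodes the zinc exporter ZnT1, another gene that MTF1 is known to induce. Each line holds the 250 bases before the start site, 5′ to 3′ on the strand of the gene. Capitals mark every match, on either strand, to the core of the metal response element, TGCACNC or TGCGCNC.
MT2A, chr16:56608334-56608583, plus strand: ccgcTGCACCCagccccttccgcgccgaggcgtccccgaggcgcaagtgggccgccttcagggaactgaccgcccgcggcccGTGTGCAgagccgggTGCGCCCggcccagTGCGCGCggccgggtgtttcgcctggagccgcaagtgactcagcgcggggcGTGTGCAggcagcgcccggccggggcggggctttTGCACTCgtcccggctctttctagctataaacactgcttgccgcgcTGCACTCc
MT1X, chr16:56682220-56682469, plus strand: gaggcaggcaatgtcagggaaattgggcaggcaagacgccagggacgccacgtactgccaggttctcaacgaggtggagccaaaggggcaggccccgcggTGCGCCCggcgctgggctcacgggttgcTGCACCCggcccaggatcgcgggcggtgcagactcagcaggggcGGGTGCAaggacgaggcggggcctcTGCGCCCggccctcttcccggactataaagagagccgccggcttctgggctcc
MT1H, chr16:56669564-56669813, plus strand: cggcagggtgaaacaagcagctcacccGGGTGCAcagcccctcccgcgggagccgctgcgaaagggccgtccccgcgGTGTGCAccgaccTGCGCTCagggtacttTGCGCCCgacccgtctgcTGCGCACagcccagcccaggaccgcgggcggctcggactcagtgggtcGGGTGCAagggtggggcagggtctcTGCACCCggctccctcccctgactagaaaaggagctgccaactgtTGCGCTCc
SLC30A1, chr1:211579162-211579411, minus strand: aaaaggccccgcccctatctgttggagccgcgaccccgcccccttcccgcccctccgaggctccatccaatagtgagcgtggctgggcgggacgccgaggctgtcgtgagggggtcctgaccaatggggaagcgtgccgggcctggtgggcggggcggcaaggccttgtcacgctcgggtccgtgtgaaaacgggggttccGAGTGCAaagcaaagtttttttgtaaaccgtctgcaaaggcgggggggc

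The MT2A promoter held 7 core matches, that of MT1X 4, that of MT1H 8 and that of SLC30A1 1. Among 35093 promoters of the same length, 24.8% held at least 1 match, 0.368% at least 4, 0.0313% at least 7 and 0.0171% at least 8. MT2A and MT1X each had 1 TATA box (TATAAA), which 10.7% of promoters held and which MT1H and SLC30A1 lacked in these bases. The MT2A promoter also had 1 AP-1 site (TGACTCA, in 4.2% of promoters), which overlapped its match to the antioxidant response element core (TGACNNNGC, in 10.9%), and MT1X and SLC30A1 each had 1 match to the latter. The E-box CACGTG, held by 6.34% of promoters, was in none of the 4. MT1H, with the most core matches of the 3 metallothionein promoters, had 0 counts in all 3 libraries, so the number of matches does not order the levels given next.

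MT1E, the member for which the family was picked, encodes a zinc-binding MT1 protein and lies at 56625475 to 56627112 on the plus strand of chromosome 16 (GRCh38). It had 523 counts in OLFM4-wild, 12979 in OLFM4-knockout and 5807 in the library labelled OLFM4-active. The levels were 28.8 CPM (interval 26.4 to 31.4), 253 CPM (249 to 257) and 243 CPM (237 to 249). OLFM4-wild was the low library and the other 2 were nearly level, with intervals that just overlap. MT1E was 8.78-fold higher in OLFM4-knockout than in OLFM4-wild, a log2 fold change of 3.13 (3.01 to 3.26), and 8.44-fold higher in the library labelled OLFM4-active, at 3.08 (2.95 to 3.21). Both comparisons use the same OLFM4-wild library, so its level enters both. The log2 difference between OLFM4-knockout and the library labelled OLFM4-active was 0.06 (0.01 to 0.10) with TMM and -0.18 with library totals, so its direction turns with the scaling.

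MT2A encodes the only human MT2 protein and is the most widely used of the genes. It lies at 56608584 to 56609497 on the plus strand and had 1396, 14464 and 6879 counts in OLFM4-wild, OLFM4-knockout and the library labelled OLFM4-active, or 76.8 CPM (interval 72.8 to 81.0), 282 CPM (277 to 286) and 288 CPM (281 to 295). Again OLFM4-wild was lowest and the other 2 lay side by side. Its log2 fold change was 1.87 (1.80 to 1.96), or 3.67-fold, in OLFM4-knockout and 1.91 (1.82 to 1.99), or 3.75-fold, in the library labelled OLFM4-active, smaller than that of MT1E in both.

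MT1X, a further MT1 gene at 56682470 to 56684196 on the plus strand, had 306, 3164 and 1030 counts, or 16.8 CPM (15.01 to 18.8), 61.6 CPM (59.5 to 63.8) and 43.1 CPM (40.5 to 45.8). Its 3 levels were all apart, with OLFM4-knockout highest. The log2 fold change from OLFM4-wild was 1.87 (1.70 to 2.05) in OLFM4-knockout and 1.35 (1.17 to 1.54) in the library labelled OLFM4-active, and 0.52 (0.41 to 0.62) between those 2 libraries, or 0.28 with library totals. MT1X shares its start with a noncoding gene on the same strand, ENSG00000259827, which overlaps 321 of the 1727 exon bases of MT1X (18.6%), and read pairs in the shared bases cannot be told apart. That gene had 207, 2223 and 648 counts and log2 fold changes of 1.92 and 1.25, close to those of MT1X.

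MT1F, an MT1 gene at 56657731 to 56660698 on the plus strand, was counted far less, with 8, 76 and 35 counts or 0.440 CPM (0.190 to 0.868), 1.48 CPM (1.17 to 1.85) and 1.46 CPM (1.02 to 2.04). Its log2 fold change was 1.67 in both comparisons, with wide intervals of 0.70 to 3.01 in OLFM4-knockout and 0.60 to 3.05 in the library labelled OLFM4-active, so its size is loosely fixed while the lower bounds stay above 0. MT1G, at 56666730 to 56668065 on the minus strand, had 0, 7 and 0 counts, and MT1M, at 56632659 to 56633981 on the plus strand, had 3, 6 and 0. For both genes the depth does not show a difference from OLFM4-wild. MT1A (56638666 to 56640087) and MT1H (56669814 to 56671129), both on the plus strand, had 0 counts in every library, which allows up to 0.165 CPM in OLFM4-wild, 0.0584 in OLFM4-knockout and 0.126 in the library labelled OLFM4-active at a limit of 3 counts.

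**Figure D1:**
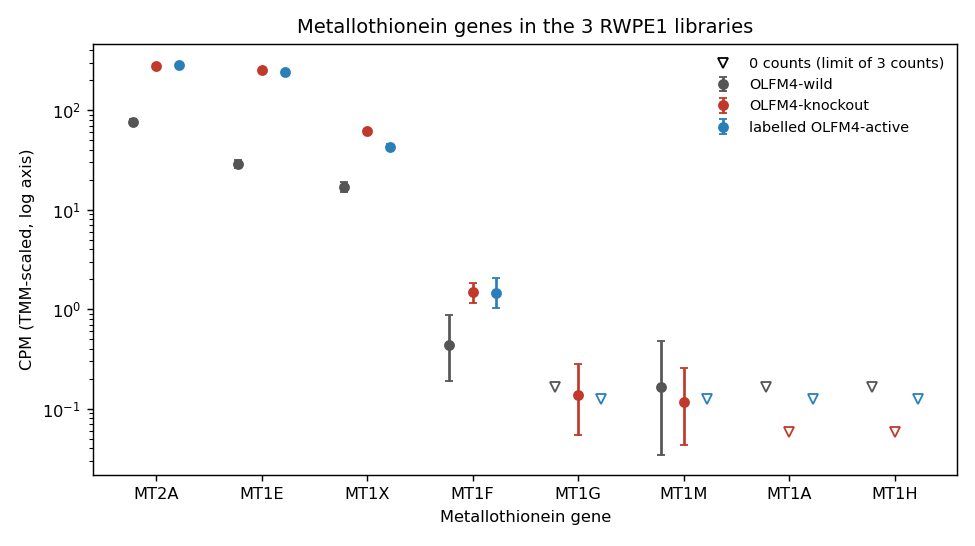
Level of each of the 8 metallothionein genes in TMM-scaled CPM (log axis) in the 3 libraries, with 95% intervals for counting error as bars and open triangles at the limit of 3 counts where a library had 0 counts. MT2A, MT1E and MT1X are lowest in OLFM4-wild (76.8, 28.8 and 16.8 CPM), and MT1A and MT1H have 0 counts throughout.

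Of the 8 genes, 6 had a count and 4 (MT1E, MT2A, MT1X and MT1F) were expressed, taken as averaging 1 CPM or more across the libraries, which MT1F reached through the libraries other than OLFM4-wild. All 4 had a log2 fold change above 1 in OLFM4-knockout against OLFM4-wild, where 5.77% of the 16600 expressed genes lay above 1 and 7.56% below -1. With library totals those shares were 2.18% and 14.1%. The same 4 lay above 1 in the library labelled OLFM4-active relative to OLFM4-wild, beside 3.78% of genes above 1 and 6.73% below -1. Between OLFM4-knockout and the library labelled OLFM4-active, none of the 4 lay past 1 in either direction, beside 2.95% and 3.39% of genes. The median of all genes was 0.10, 0.05 and 0.08 on the log2 scale in these 3 comparisons, and library totals move it by -0.35, -0.11 and -0.24. Since the genes were chosen on the first comparison, and the second shares its OLFM4-wild library, these counts are given as a description.

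Among the 10597 genes that averaged 10 CPM or more, MT1E stood at rank 4 from the top by log2 fold change in both comparisons with OLFM4-wild. MT2A stood at ranks 44 and 28 and MT1X at ranks 45 and 79. Among all 16600 expressed genes, the ranks were 32 and 21 for MT1E, 140 and 98 for MT2A, and 142 and 266 for MT1X. MT1E was picked on the first comparison, and the second shares its OLFM4-wild library, so these ranks are given as a description.

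**Figure D2:**
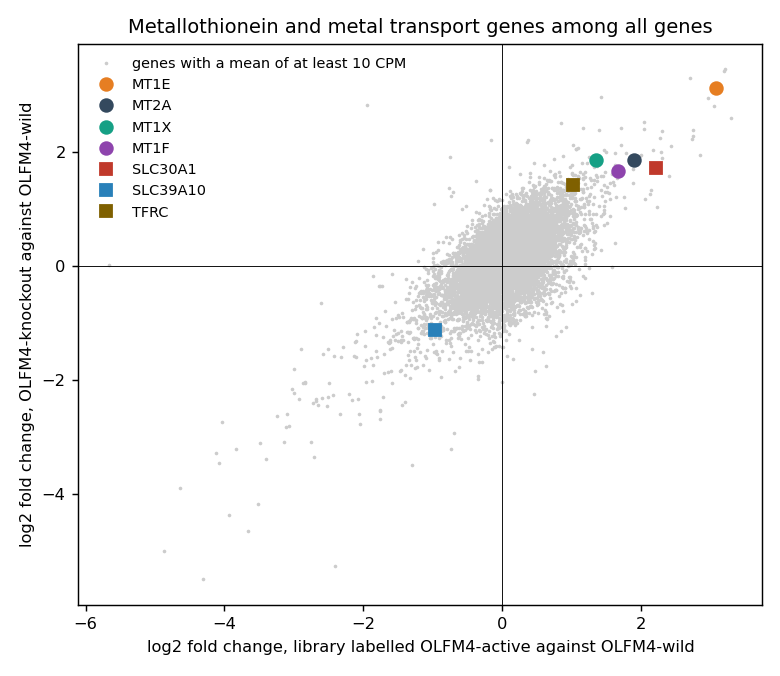
Log2 fold change of each gene that averaged 10 CPM or more (grey points) in OLFM4-knockout (vertical axis) and in the library labelled OLFM4-active (horizontal axis), each against OLFM4-wild, with metallothionein genes as circles and metal transport genes as squares; MT1F averaged less. MT1E lies at 3.13 and 3.08, and the axes share the OLFM4-wild library.

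Summed over the 8 genes, the counts were 2236 in OLFM4-wild, 30696 in OLFM4-knockout and 13751 in the library labelled OLFM4-active, or 123, 598 and 576 CPM. The log2 fold change of the sum from OLFM4-wild was 2.28 (2.22 to 2.34) and 2.23 (2.16 to 2.29). Its make-up also differed, which is a description, since MT1E was picked for its difference between OLFM4-knockout and OLFM4-wild. MT1E held 23.4% of the metallothionein counts in OLFM4-wild (interval 21.6 to 25.2), 42.3% in OLFM4-knockout (41.7 to 42.8) and 42.2% in the library labelled OLFM4-active (41.4 to 43.1). MT2A held 62.4%, 47.1% and 50.0%, and MT1X 13.7%, 10.3% and 7.49%, while MT1F held 0.248% to 0.358%. In counts, which are not corrected for gene length, most of the OLFM4-wild sum was MT2A, and in the other 2 libraries MT1E and MT2A were nearer to each other.

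**Figure D3:**
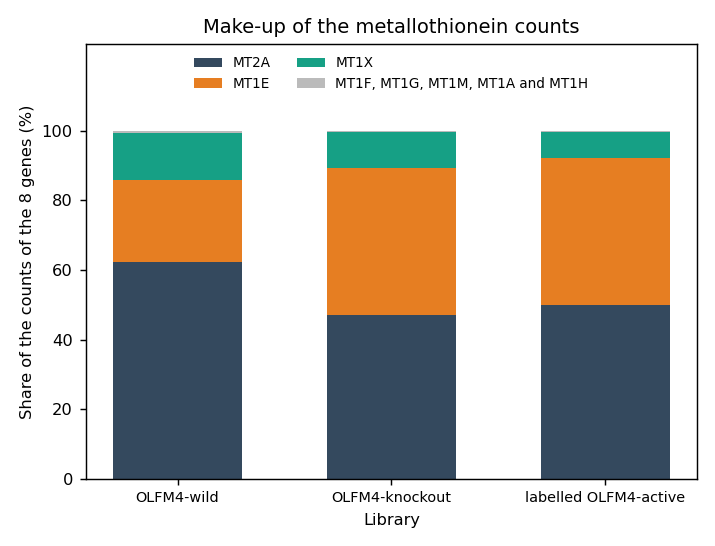
Share of the counts of the 8 metallothionein genes (percent) held by MT2A, MT1E, MT1X and the 5 other genes in each library. MT1E holds 23.4% in OLFM4-wild and 42.3% and 42.2% in the other 2 libraries.

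Ratios within a library do not depend on how libraries are scaled. Per 100 MT2A counts there were 37.5 MT1E counts in OLFM4-wild, 89.7 in OLFM4-knockout and 84.4 in the library labelled OLFM4-active. The log2 change of that ratio from OLFM4-wild was 1.26 (1.11 to 1.41) and 1.17 (1.02 to 1.33). MT1X kept pace with MT2A in OLFM4-knockout, at 21.9 per 100 there and in OLFM4-wild, but stood at 14.97 in the library labelled OLFM4-active, a log2 change of -0.55 (-0.75 to -0.34). Of these genes, MT1E had a higher ratio to MT2A in both libraries than in OLFM4-wild, beyond counting error, and MT1X a lower one in 1 of them. MT1E was picked for its difference between OLFM4-knockout and OLFM4-wild, and both changes use the same OLFM4-wild library. The higher ratio of MT1E is therefore a description. For MT1F the ratio was 0.573, 0.525 and 0.509, with intervals of its log2 change that include 0.

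Levels per length order the genes within a library. In CPM per kb of exon, MT2A was at 84.1, 308 and 315, MT1E at 27.4, 240 and 231, and MT1X at 9.75, 35.7 and 24.96, in OLFM4-wild, OLFM4-knockout and the library labelled OLFM4-active. MT1F was at 0.238, 0.799 and 0.791, below MT1M in OLFM4-wild (0.323) and above it in OLFM4-knockout (0.229). The order MT2A, MT1E, MT1X held in all 3 libraries with intervals that do not overlap. The intervals of MT1F and MT1M overlapped in OLFM4-wild, and those of MT1M and MT1G in OLFM4-knockout. With the longest transcript as the length, MT1E stood above MT2A in OLFM4-knockout (339 against 312 CPM per kb) and in the library labelled OLFM4-active (326 against 319), so the order of these 2 genes depends on the transcript taken.

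The members are near copies of each other, and the authors counted read pairs that map to 1 place. Of the windows of 75 bases along the annotated transcripts, 92.4% for MT1E (1038 of 1123), 98.6% for MT1X and 100% for MT2A, MT1F and MT1A have 1 place only, with a gene that overlaps at the same place not counted as a second one. Of the MT1X windows, 248 with 1 place also belong to transcripts of ENSG00000259827. The share was 94.3% for MT1G, 98.9% for MT1M and 92.7% for MT1H. Of the 85 MT1E windows with another place, 16 occur in annotated transcripts of other genes, among them MT1G, MT1JP, MT1P3 and MT1M, and 69 only in the genome, 47 of these within MT1M and 22 within MT1JP.

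Of the 13 other metallothionein genes and pseudogenes, 7 had a count and none was expressed by that measure. MT1L, a transcribed pseudogene inside the cluster, had 0, 15 and 3 counts. Its level in OLFM4-knockout was 1.77-fold that of 3 counts in OLFM4-wild, and the lower bound of its log2 fold change was 0.34. The pseudogene MT1JP had 1, 11 and 2 counts. MT2P1, a processed MT2 pseudogene on chromosome 4, had 4, 34 and 20. The remaining ones with counts were MT1XP1 (8, 14 and 8), MT1P3 (3, 8 and 4), MT1P1 (1, 1 and 2) and MT4 (0, 1 and 0). MT3, the brain gene, and MT1B were at 0 in all libraries. How far these counts are reads of the expressed members was not tested.

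The cluster spans 75.6 kb, and 24 genes lie within 150 kb of its ends. Of the genes just outside it, BBS2, a cilium protein gene, had log2 fold changes of -0.01 (-0.13 to 0.12) and -0.17 (-0.32 to -0.02) in OLFM4-knockout and in the library labelled OLFM4-active. OGFOD1, an oxygenase gene, had 0.51 (0.40 to 0.62) and 0.37 (0.25 to 0.49), and NUP93, of the nuclear pore, 0.70 (0.60 to 0.80) and 0.33 (0.22 to 0.45). Among expressed genes within the window, those past 1 were the 4 metallothionein genes and ENSG00000259827. DPPA2P4, a pseudogene beside MT1X, had only 7, 2 and 4 counts.

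**Figure D4:**
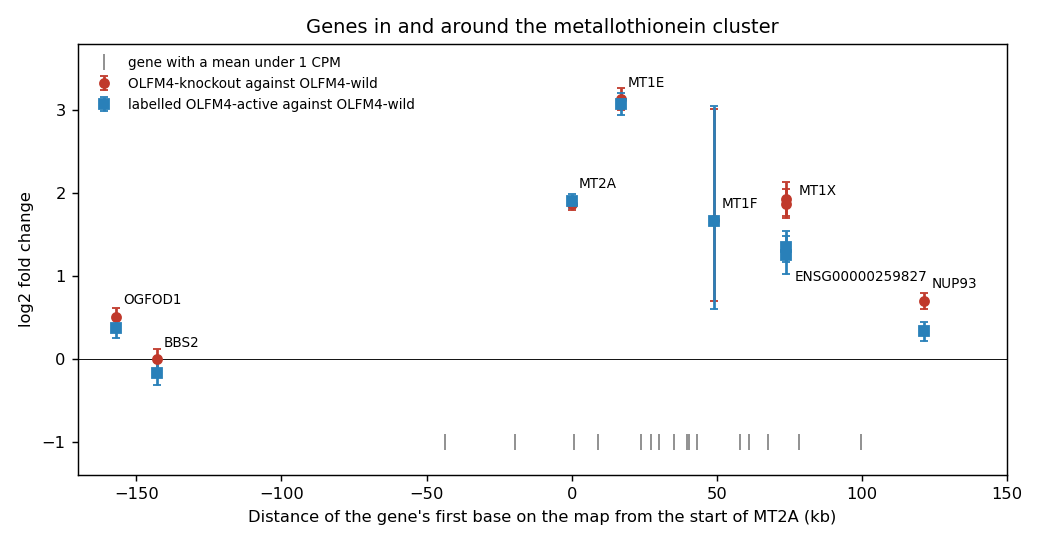
Log2 fold change against OLFM4-wild of the genes within 150 kb of the metallothionein cluster, against the distance of each gene from the start of MT2A in kb, with 95% intervals for counting error; ticks mark genes under that level of expression, an average of 1 CPM. MT1X and ENSG00000259827 share a start, and OGFOD1, BBS2 and NUP93 lie between -0.17 and 0.70.

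The zinc transporters give the nearest relatives in function. For these and the later lists, the share of all expressed genes above 1 was 5.77% in OLFM4-knockout and 3.78% in the library labelled OLFM4-active. The shares below -1 were 7.56% and 6.73%. With so few genes in a list, 1 gene past 1 says little about the list. Of 10 zinc exporter genes, 6 were expressed, and SLC30A1, which lowers cytosolic zinc at the cell surface, was the only one above 1, in both comparisons. It had 771, 7254 and 4717 counts, or 42.4, 141 and 197 CPM, lowest in OLFM4-wild and highest in the library labelled OLFM4-active. Its log2 fold change was 1.73 (1.63 to 1.84) in OLFM4-knockout and 2.22 (2.11 to 2.33) in the library labelled OLFM4-active, with -0.48 between them. The list's median was 0.45 and 0.34, or 0.10 and 0.22 with library totals. The order of these 2 libraries for SLC30A1 is thus the reverse of that for MT1X.

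Of 14 zinc importer genes, 11 were expressed, with medians of 0.35 and 0.02, or 0.0004 and -0.10 with library totals. In each comparison 1 lay above 1. That gene was SLC39A4, an importer at the cell surface, with 89, 620 and 298 counts and log2 fold changes of 1.30 and 1.34, the first of which was 0.94 with library totals. SLC39A10, an importer that MTF1 is known to repress, had 759, 982 and 512 counts, or 41.8, 19.1 and 21.4 CPM. It was the 1 expressed importer below -1 in OLFM4-knockout, at -1.13 (-1.26 to -0.99), with -0.96 (-1.13 to -0.80) in the library labelled OLFM4-active. With library totals the latter was -1.08. The importer SLC39A2, which averaged under 1 CPM, had 22, 7 and 0 counts, with 1.21 CPM in OLFM4-wild. Its log2 fold change was -3.08 (-4.62 to -1.87) in OLFM4-knockout. In the library labelled OLFM4-active its upper bound was -2.85. SLC39A10 and SLC39A2 were highest in OLFM4-wild, where SLC39A4, MT1E, MT2A, MT1X, MT1F and SLC30A1 were lowest. Of the 11 expressed importers, 9 lay between -1 and 1 in OLFM4-knockout and 10 in the library labelled OLFM4-active. Whether MTF1 or zinc has a part in these levels was not tested. The transcript of MTF1 itself had 582, 1438 and 911 counts, or 32.0, 28.01 and 38.1 CPM, with log2 fold changes of -0.19 and 0.25.

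Of the 9 copper handling genes in the table, all expressed, only CCS, the chaperone that loads copper into superoxide dismutase, lay above 1. It was at 1.21 in OLFM4-knockout (0.86 with library totals) and 0.53 in the library labelled OLFM4-active. The copper list's medians were 0.32 and 0.27, or -0.03 and 0.16 with library totals. Of the 7 expressed iron handling genes, TFRC, the transferrin receptor, lay above 1 at 1.43 and 1.03 (0.91 with library totals). The iron list's medians were 0.01 and 0.12, or -0.34 and 0.009 with library totals. FTH1 and FTL, the ferritin chains that store iron, had log2 fold changes of 0.01 and 0.21 in OLFM4-knockout and 0.51 and 0.12 in the library labelled OLFM4-active.

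Of 12 genes known to be induced by metals or by the stress they cause, other than metallothioneins, 11 were expressed. In OLFM4-knockout 3 lay above 1, namely SLC30A1 and the near-identical heat shock genes HSPA1A (1.17) and HSPA1B (1.29), whose reads cannot be fully told apart and which were at 0.82 and 0.94 with library totals, where ATF3, a stress transcription factor, went from -0.83 to -1.19. In the library labelled OLFM4-active 3 lay above 1, SLC30A1, TXNRD1 (1.07, or 0.96 with library totals) and SLC7A11 (1.23), while ATF3 lay at -1.03. HMOX1, which encodes heme oxygenase and responds strongly to cadmium and heme, had 21, 63 and 33 counts. Its log2 fold changes were 0.06 (-0.65 to 0.87) and 0.24 (-0.58 to 1.12), so its size is loosely fixed. HSPA6, a strictly inducible heat shock gene under that level of expression, had 4, 70 and 29 counts. Its log2 fold changes were 2.47 (1.21 to 4.55) and 2.32 (0.95 to 4.43), with few counts in OLFM4-wild. The list's medians were 0.67 and 0.58, or 0.32 and 0.47 with library totals.

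Of 11 glucocorticoid-induced genes, SGK1, a kinase gene, lay above 1 in both comparisons (1.62 and 1.16). In OLFM4-knockout 5 lay below -1, KLF9 (-1.86), ZBTB16 (-1.47), PER1 (-1.46), NFKBIA (-1.34) and CRISPLD2 (-1.16), and in the library labelled OLFM4-active 4 did, ZBTB16 (-2.49), NFKBIA (-2.12), KLF9 (-1.72) and TSC22D3 (-1.53). TSC22D3 was at -0.91 in OLFM4-knockout and at -1.27 there with library totals. FKBP5, another receptor target, had -0.17 and 0.10, and the glucocorticoid receptor gene NR3C1 -0.46 and -0.10. The list's medians were -0.91 and -0.29, or -1.27 and -0.40 with library totals. Of all expressed genes, 7.56% lay below -1 in OLFM4-knockout and 6.73% in the library labelled OLFM4-active.

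**Figure D5:**
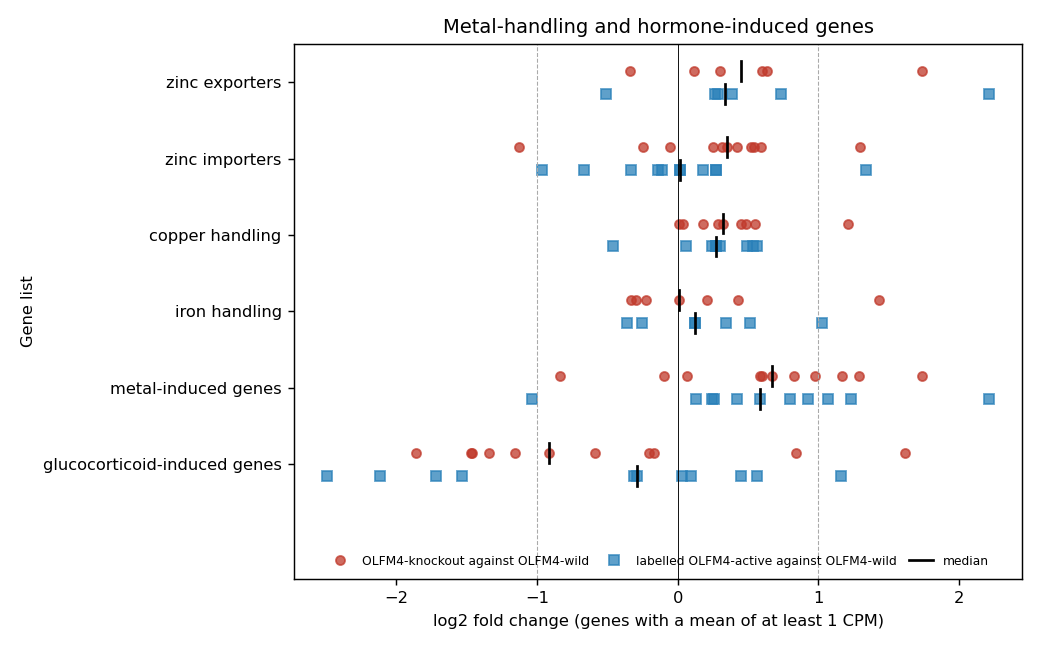
Log2 fold change against OLFM4-wild of the expressed genes of 6 lists, with dashed lines at -1 and 1 and a bar at each list's median. SLC30A1, in the exporter and metal-induced lists, lies at 1.73 and 2.22, and the glucocorticoid-induced genes have medians of -0.91 and -0.29.

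The genes most like MT1E were sought by the distance between their 2 log2 fold changes from OLFM4-wild and those of MT1E, over the 3 libraries. Among genes that averaged 10 CPM or more the nearest were DKK1, an inhibitor of WNT signalling, at a distance of 0.207, AJAP1, a junction protein gene, at 0.326, ENSG00000257042 at 0.328, PTHLH, the parathyroid hormone-like hormone, at 0.355 and ODC1, an enzyme of polyamine synthesis, at 0.412. DKK1 had 872, 19183 and 8945 counts in OLFM4-wild, OLFM4-knockout and the library labelled OLFM4-active. To the sum of the 8 genes the nearest were CPA4 (0.0572), SIK1 (0.124), HSPA8 (0.231), RNU5F-1 (0.247) and ALDH1A3 (0.271).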

How the data were processed

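The authors aligned read pairs to GRCh38 with HISAT2 after trimming with cutadapt and counted uniquely mapped, reversely stranded pairs per gene with featureCounts. The deposited values are whole-number counts with no normalization. Positions, lengths and types came from GENCODE version 44, which matched 56993 of the 58037 identifiers. The annotation release the authors used is not given in the sources used here.

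Library sizes were scaled by TMM (edgeR 4.0.16) over all 3 libraries, and log2 fold changes were taken from log2 CPM as in limma 3.58.1, with an offset of 0.5 counts, in R 4.3.3. Intervals are conditional exact (Clopper-Pearson) at 95%. No test was made, since each label has 1 library. A gene past a log2 fold change of 1 that averaged 1 CPM or more was counted. The uniqueness of windows of 75 bases was searched with BLAST+ 2.17.0, and further steps used Python 3.11.15, pandas 2.3.3, scipy 1.17.1 and matplotlib 3.10.9. The log2 fold change of OLFM4-knockout against OLFM4-wild and its interval were checked on simulated counts that held counting error only. The other steps were not simulated. The text names the metallothionein genes with counts, genes of the lists past 1 and up to 4 examples of each, genes within 150 kb of the cluster and the 5 genes nearest to MT1E and to the sum. The members and lists were chosen with earlier results of these data known. Alternatives were library totals, DESeq2 1.42.0 size factors, upper quartile factors, leaving out the 10 most abundant genes, offsets of 1 and 5 counts, and thinning.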

Additional observations from a re-analysis of the deposited data

How the results depend on the processing

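No paired analysis was possible because each label has 1 library, and for the same reason no library could be left out. Over the 7 alternatives, MT1E, MT2A, MT1X and MT1F stayed above a log2 fold change of 1 against OLFM4-wild in both comparisons, MT1E between 2.78 and 3.18 in OLFM4-knockout and between 2.96 and 3.10 in the library labelled OLFM4-active. With DESeq2 size factors, where CPM were set relative to the mean library total, MT1F averaged under 1 CPM, so that 3 genes in place of 4 were counted above 1 in both comparisons. The sum of the 8 genes in OLFM4-knockout against OLFM4-wild was 1.93 with library totals and 2.19 with upper quartile factors, beside 2.28. In the library labelled OLFM4-active it was 2.11 with library totals, beside 2.23. Between OLFM4-knockout and the library labelled OLFM4-active it was -0.18 with library totals and -0.050 with upper quartile factors, beside 0.06, so that difference has no settled direction. The share of all genes above 1 in OLFM4-knockout against OLFM4-wild was 10.1% with no filter on level, where 24.2% lay below -1, and 2.93% lay below -1 among genes averaging 10 CPM or more. With genes averaging 1 CPM or more, 3 of the 5 genes nearest to MT1E and 2 of the 5 nearest to the sum were the same. Depth limits MT1F, MT1G and MT1M, with at most 76 counts.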
